A study of Homo sapiens with 6 samples.

Results

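Long intergenic non-coding RNAs (lincRNAs) are transcripts without a long open reading frame that lie between protein-coding genes. The 258 lincRNAs described here were the expressed ones of the A549 libraries: the rows that the deposited count table types as lincRNA and that had a mean of at least 50 raw counts over the 6 libraries. They were 258 of 3508 lincRNA rows and of 29889 genes in the table. Another 5 snoRNA host genes (SNHG8, SNHG9, SNHG15, SNHG19 and SNHG25) also reached that mean and were left out by name. The members were thus chosen by their mean count over all 6 libraries, so a high level is no result here. The rule does not use the difference between the groups, but it was set when earlier results of these data were known.

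LincRNAs are transcribed by RNA polymerase II for the most part, and are capped, often spliced and often polyadenylated. Some act in the nucleus, as MALAT1 in speckles and NEAT1 in paraspeckles do, some act in the cytoplasm, as NORAD does by holding Pumilio proteins, and others are known mainly as the precursors of microRNAs or as transcripts that start beside a protein-coding gene and run away from it. Most have no described function, and their levels are usually lower and more cell-type specific than those of messenger RNAs.

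A549 is an established human lung adenocarcinoma cell line. The CELF6-OE group had been transfected with a pIRES-hrGFP-1a plasmid carrying CELF6, an RNA-binding protein of the CUGBP Elav-like family, and the Control group with the empty plasmid, both with a lipid reagent. Polyadenylated RNA was sequenced 48 h later from 3 biological replicates per group, which makes 6 libraries. Both groups therefore share the cell line, the lipid reagent and the plasmid backbone, the sources used here give no share of transfected cells, and the endogenous CELF6 level cannot be separated from that of the plasmid.

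Gene counts per library summed to 33748328 to 35413404 for CELF6-OE and to between 36422617 and 37920700 for Control. CELF6 had 18646, 20789 and 11571 counts in the CELF6-OE libraries and 0 in each of the 3 Control libraries, where 0 allows up to 3 counts. All 8 epithelial and A549 markers had an FPKM (fragments scaled by transcript length and by library) of at least 1, with KRT8 leading, and their summed FPKM was 7233 to 8383 in CELF6-OE against 8881 to 9291 in Control. These ranges do not overlap, and their part in the lincRNA results was not tested. Of the markers of other cells, CD14 alone among 5 leukocyte markers reached an FPKM of 1, none of 5 fibroblast and none of 4 endothelial markers did, and the T cell marker CD3E was at 0. Mitochondrial genes took 8.91% to 10.1% of the counts in CELF6-OE against 8.69% to 9.19% in Control.

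The expressed lincRNAs were minor RNAs. Their mean count ran from 50.2 to 14235 with a median of 117. Only 10 exceeded a mean of 1000, and 116 had a mean under 100. On the length-adjusted FPKM scale the level over the 6 libraries ran from 0.142 to 54.3 with a median of 1.93, and 74 members lay under 1 whereas 21 reached 10. They lay on 23 chromosomes, led by chromosome 2 with 24, chromosome 17 with 21 and chromosome 7 with 20. The table names 148 of them only by a clone symbol such as RP11-479G22.8. The median coefficient of variation of CPM (counts scaled to library size) between replicates was 9.14% in CELF6-OE and 10.4% in Control, and it exceeded 30% in either group for 11 members.

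Together the 258 lincRNAs took 0.223% to 0.225% of all gene counts in the 3 CELF6-OE libraries and 0.191% to 0.196% in the 3 Control libraries, so the groups did not overlap. One row, BCYRN1, made 21.2% to 22.4% of these counts in CELF6-OE against 14.5% to 17.5% in Control. Without it the share was 0.174% to 0.177% in CELF6-OE against 0.161% to 0.166% in Control, and the groups still did not overlap.

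Each gene was compared between CELF6-OE and Control with edgeR's quasi-likelihood test over 15847 genes, and a gene was called at a fold change of 1.5 or more with a Benjamini-Hochberg adjusted p under 0.05. All 258 lincRNAs were among the genes tested. Of them, 26 (10.1%) were called higher in CELF6-OE, beside 1.35% of all genes tested, and 12 (4.65%) were called lower, beside 5.82% of all genes tested. In either direction 38 were called, beside 7.17% of all genes tested. Over all genes tested the calls were thus mostly lower, 922 against 214, and among the lincRNAs mostly higher. At a lower minimum, a mean of 25 counts, 30 of 426 lincRNAs were called higher and 24 lower. The count of 26 fell to 16 without CELF6-OE replicate 2 and to 17 without Control replicate 2. In these bulk libraries a change in the number of cells that hold a transcript and a change in transcripts per cell cannot be told apart.

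With no minimum fold, 38 lincRNAs (14.7%, beside 6.47% of all genes tested) were higher at an adjusted p under 0.05 and 23 (8.91%, beside 11.5%) were lower, while 197 were neither. The first count was 21 without CELF6-OE replicate 1, 20 without CELF6-OE replicate 2 and 19 without Control replicate 2, and the second was 15, 9 and 10 without the same libraries. The median log2 fold change of the 258 was 0.09, beside 0.01 for all genes tested, with 150 fitted above 0 and 108 below. It was 0.05 without Control replicate 1. Scaled counts of the groups did not overlap for 71 lincRNAs with CELF6-OE higher (27.5%, beside 17.9% of all genes tested) and for 48 with CELF6-OE lower (18.6%, beside 20.0%). All 38 called lincRNAs were among those, but a call and a lack of overlap rest on the same counts, so this is no separate support.

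The other classes of the count table give the scale of these shares. Of 11701 protein-coding genes with a mean of at least 50 counts, 0.726% were called higher and 5.42% lower. Of 295 antisense RNA genes above the same mean, 5.76% were called higher and 4.75% lower. Of 480 lincRNA rows that were tested but had a mean under 50 counts, 2.5% were called higher and 4.58% lower. The shares are a description, and their difference was not tested.

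**Figure D1:**
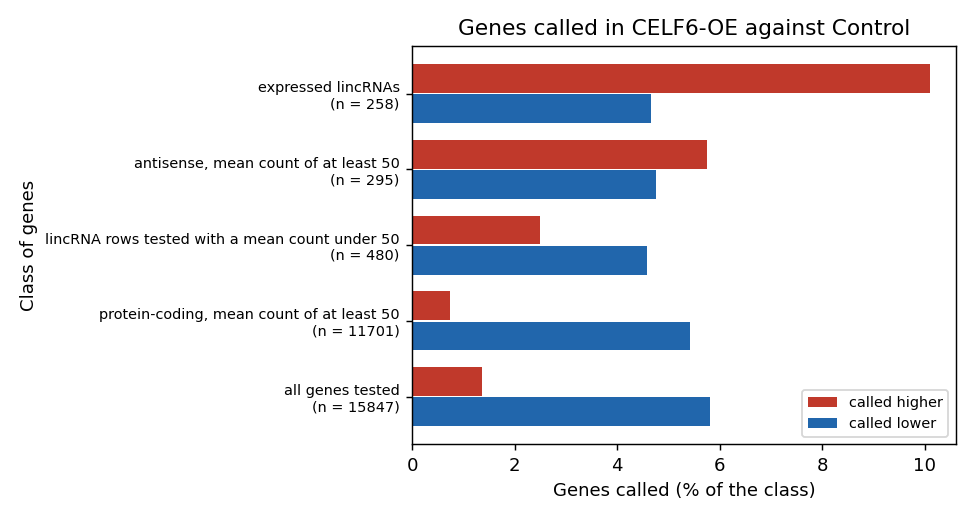
Percentage of each class of genes called higher (red) and lower (blue) in CELF6-OE against Control, at 1.5-fold or more with an adjusted p under 0.05, with the number of genes in each class in parentheses. The 258 expressed lincRNAs have 10.1% called higher and 4.65% lower, and all 15847 genes tested have 1.35% and 5.82%.

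The minimum of 50 counts itself let in some members through 1 group. The mean of the CELF6-OE libraries alone reached 50 for 13 members whose Control mean did not, and the reverse held for another 13. Of the 26 lincRNAs called higher, 6 belonged to the former, and of the 12 called lower, 3 belonged to the latter. Just inside the minimum lay RP11-273G15.2 and RP11-134G8.5, each with a mean of 50.2 counts, and RP11-258C19.7 with 50.7. Just outside lay CTD-2377D24.6 and bP-21264C1.2 with 49.3 counts and RP11-390P24.1 with 49.2.

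**Figure D2:**
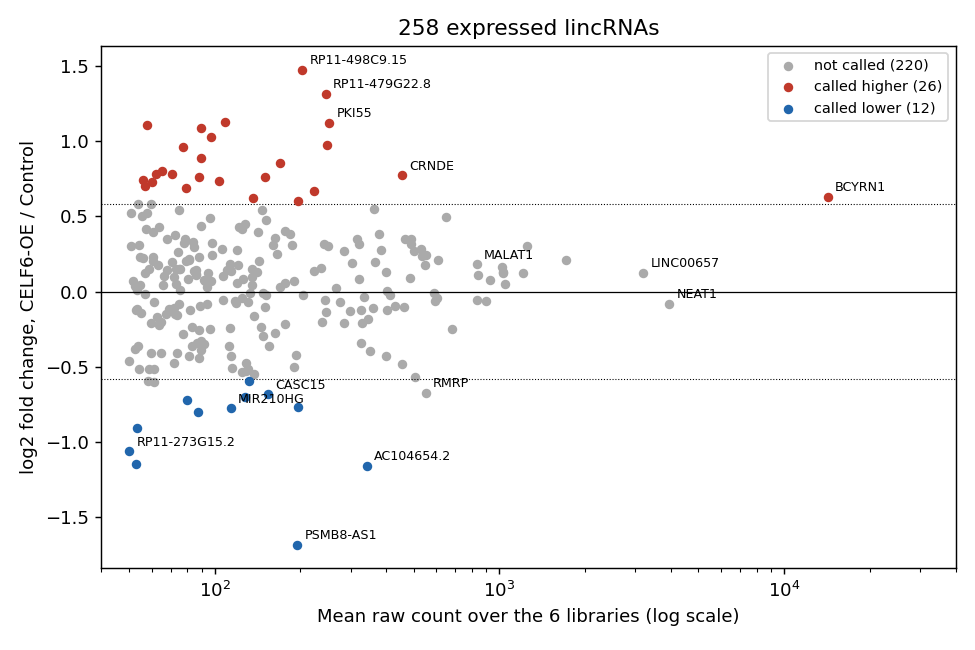
Log2 fold change (CELF6-OE over Control) of the 258 expressed lincRNAs against their mean raw count over the 6 libraries on a log scale, with dotted lines at 1.5-fold and with called lincRNAs in red (26 higher) and blue (12 lower). Fold changes reach 1.48 for RP11-498C9.15 and -1.68 for PSMB8-AS1, BCYRN1 is the called member with the highest count, and RMRP lies past the lower line without a call.

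The lincRNAs called higher mostly carried clone names, with a median log2 fold change of 0.78. Past 2-fold lay 7 of the 26. The sharpest test was that of RP11-479G22.8 (ENSG00000273038.2), which was not matched in GENCODE v44, the annotation used here. It had 353, 389 and 294 counts under CELF6-OE against 143, 150 and 144 in Control. Every CELF6-OE library lay well above every Control library. The FPKM was 4.63 ± 0.53 in CELF6-OE and 1.82 ± 0.04 in Control (SD, n = 3 each), and the log2 fold change was 1.32 ± 0.12 (SE) with an adjusted p of 4.21e-05 in edgeR's quasi-likelihood test.

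The largest difference in this direction was that of RP11-498C9.15 (chr17:81878425-81881106, minus strand, 1 exon block on GRCh38), which is an unnamed transcript in GENCODE v44. Its counts were 358, 304 and 223 under CELF6-OE against 108, 107 and 119 in Control. The 3 CELF6-OE libraries differed among themselves, but the lowest of them lay far above every Control library. The log2 fold change was 1.48 ± 0.17 (SE), edgeR adjusted p 0.000165. Of its exon bases, 782 are shared with another annotated gene on the opposite strand.

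PKI55, now named LINC01963 (chr2:216217045-216220192, plus strand), lies beyond the end of XRCC5, which encodes the Ku80 subunit of the DNA end-binding Ku complex. It had 352, 366 and 303 counts under CELF6-OE against 181, 166 and 146 in Control. The groups were far apart, with a log2 fold change of 1.12 ± 0.12 (SE) and an edgeR adjusted p of 0.000101. XRCC5, 10742 bp away on the same strand, had a log2 fold change of 0.21 and an edgeR adjusted p of 0.0437, which is under 1.5-fold.

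Another 4 unnamed single-block transcripts had differences of similar size. RP11-159D12.2 (chr17:57989039-57994850) had 309, 332 and 331 counts under CELF6-OE against 158, 178 and 184 in Control. RP5-1085F17.3 (chr20:32856621-32858751) had 152, 146 and 141 counts and 68, 71 and 72 counts, respectively. Within each group these counts were close together, and between the groups they did not overlap. RP11-147L13.13 (chr17:68133201-68135935) had 107, 140 and 112 counts under CELF6-OE against 58, 61 and 58 in Control. RP11-53O19.3 (chr5:44826076-44828592), which lies near MRPS30, a gene for a mitochondrial ribosome protein, had 139, 129 and 116 counts under CELF6-OE against 70, 56 and 72 in Control. RP11-159D12.2 shares 379 exon bases on the same strand with the protein-coding gene ENSG00000266086. That gene had a log2 fold change of 0.47 and an edgeR adjusted p of 0.00176. RP11-147L13.13 shares 930 exon bases with SH3GL1P3 on the opposite strand. The part of reads of these genes in the lincRNA counts was not tested. For all 4 lincRNAs every CELF6-OE library exceeded every Control library. Their log2 fold changes were 0.98 for RP11-159D12.2, 1.13 for RP5-1085F17.3, 1.09 for RP11-147L13.13 and 1.03 for RP11-53O19.3, with edgeR adjusted p of 0.000171, 0.000239, 0.000794 and 0.0013.

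CRNDE (chr16:54845189-54929189, minus strand) is a well studied lincRNA that rose. It is a spliced transcript first described in colorectal neoplasia, where its level is high, and it starts next to IRX5, a homeobox transcription factor gene on the opposite strand. It had 565, 590 and 532 counts under CELF6-OE against 389, 316 and 333 in Control, so the groups did not overlap. The FPKM was 9.88 ± 0.27 in CELF6-OE and 5.67 ± 0.77 in Control (SD, n = 3 each), and the log2 fold change was 0.77 ± 0.10 (SE) with an edgeR adjusted p of 0.000391. IRX5 had 89, 77 and 92 counts under CELF6-OE against 76, 91 and 91 in Control, with an edgeR adjusted p of 0.785.

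RP11-111M22.3, now named EMSY-DT, starts 233 bp from the start of EMSY, a chromatin protein gene, and runs in the opposite direction. It had 192, 227 and 223 counts under CELF6-OE against 119, 130 and 125 in Control. The groups were apart and the log2 fold change was 0.85 ± 0.12 (SE), edgeR adjusted p 0.000873. EMSY itself had a log2 fold change of 0.13 and an edgeR adjusted p of 0.492.

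BCYRN1, or BC200, is known as a short brain cytoplasmic RNA made by RNA polymerase III, which joins an Alu-like domain to an A-rich stretch and represses translation at synapses. It is also found in many tumours. This row holds more counts than any other expressed lincRNA.

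The BCYRN1 row had 17479, 16813 and 16552 counts under CELF6-OE against 10184, 11360 and 13023 in Control. All CELF6-OE libraries were higher, and the Control libraries were the more spread. The FPKM was 34.8 ± 1.0 in CELF6-OE and 22.0 ± 2.3 in Control (SD, n = 3 each), and the log2 fold change was 0.63 ± 0.09 (SE) with an edgeR adjusted p of 0.000687. Without Control replicate 1 the log2 fold change was 0.54, which is under 1.5-fold. The deposited FPKM and counts together imply a gene model of 13929 bp for this row, 69.6 times the 200 bases annotated in GENCODE v44, so the row would span a much longer model and cannot be read as the short RNA alone. Such a ratio above 3 was seen for 8 of the expressed lincRNAs, and the median ratio was 0.87. How many of the reads come from the short RNA was not tested.

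The remaining 16 lincRNAs called higher had log2 fold changes between 0.60 and 1.11 and edgeR adjusted p between 0.002 and 0.0414. LINC00997 and RP11-225B17.2 lie on the same strand of chromosome 7 (chr7:32760279-32762924 and chr7:32758882-32759353), so they are neighbours and may not be separate transcripts. LINC00997 had 188, 203 and 166 counts under CELF6-OE against 112, 128 and 106 in Control, and RP11-225B17.2 had 109, 114 and 118 under CELF6-OE against 90, 67 and 37 in Control. Both were higher in every CELF6-OE library, and both were singled out after their values were seen. Of all 26, 13 kept their call under every one of 14 other fits.

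**Figure D3:**
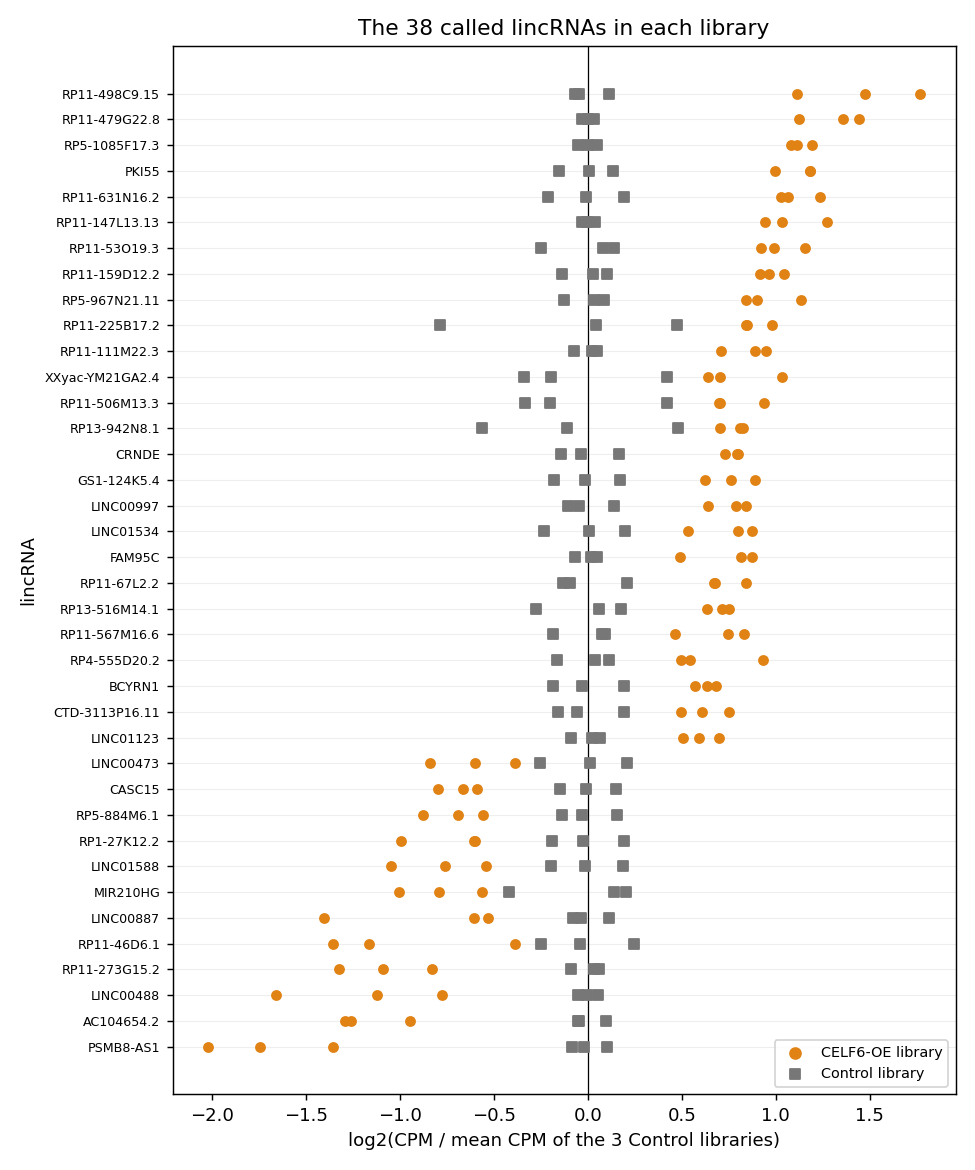
Log2 of CPM in each library over the mean of the 3 Control libraries, for the 38 called lincRNAs, with CELF6-OE libraries as orange circles and Control libraries as grey squares. In every row the orange circles lie to 1 side of all grey squares, and the Control libraries of RP11-225B17.2 and RP13-942N8.1 are spread the most widely.

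The lincRNAs called lower had a median log2 fold change of -0.79, and 4 of the 12 lay past 2-fold. PSMB8-AS1 (ENSG00000204261.8, chr6:32844078-32846500, plus strand) fell the most of all 258. It lies in the major histocompatibility complex and starts 601 bp from the start of PSMB8 on the opposite strand. By the outermost gene boundaries of GENCODE v44, its start is 58 bp from that of PSMB9 on the same strand, and it overlaps PSMB9. PSMB8 and PSMB9 encode catalytic subunits of the immunoproteasome. The lincRNA also overlaps TAP1, which encodes the transporter that moves peptides into the endoplasmic reticulum. PSMB8-AS1 had 70, 88 and 109 counts under CELF6-OE against 285, 326 and 293 in Control. The highest CELF6-OE library was far below the lowest Control library. The FPKM was 1.83 ± 0.43 in CELF6-OE and 5.74 ± 0.34 in Control (SD, n = 3 each), the log2 fold change was -1.68 ± 0.16 (SE) and the edgeR adjusted p was 5.08e-05.

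The protein-coding genes around PSMB8-AS1 fell too. PSMB9 had 2031, 2112 and 3091 counts under CELF6-OE against 7337, 8190 and 8407 in Control, and its log2 fold change was -1.65. PSMB8 had a log2 fold change of -1.44 and TAP1 one of -1.30, with edgeR adjusted p of 6.77e-05 and 3.81e-05. PSMB8-AS1 shares 174 exon bases with PSMB9 on the same strand and 672 with TAP1 on the opposite strand. Only the gene with the most shared bases on each strand was recorded, so sharing with PSMB8 is not given. The libraries were directional, but the strand setting of the counting is not given in the sources used here. The part of PSMB9, TAP1 or PSMB8 reads in this count was not tested.

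The promoter of PSMB8-AS1 is printed because it was the only promoter among the called lincRNAs that held a motif searched here. Promoters were taken from RefSeq on GRCh38 as the 250 bases before and 50 after a gene's start, and 129 of the 258 lincRNAs matched one. The core of the interferon-stimulated response element (TTTC, any 2 bases, TTTC) was searched on both strands, and capitals mark the match, GAAAGCGAAA, which begins 44 bases before the start site. The promoter spans chr6:32843836-32844135 on the plus strand. Since the outermost annotated start of PSMB9 lies 58 bp from that of PSMB8-AS1 on the same strand, this stretch cannot be assigned to the lincRNA alone. Starts of single transcripts were not examined, so it cannot be assigned to PSMB9 either.

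PSMB8-AS1 promoter: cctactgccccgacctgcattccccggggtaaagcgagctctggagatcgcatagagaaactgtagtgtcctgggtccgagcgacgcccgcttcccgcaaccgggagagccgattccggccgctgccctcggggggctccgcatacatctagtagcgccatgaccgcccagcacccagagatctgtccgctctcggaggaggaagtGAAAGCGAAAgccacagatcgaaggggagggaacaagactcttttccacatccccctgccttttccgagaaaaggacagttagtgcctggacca

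This core was found in 6 of the 129 promoters (4.65%) and in 3.57% of 35116 RefSeq promoters of the same length. It was present in 1 of 7 promoters of lincRNAs called lower and in 0 of 10 of those called higher. The second motif (GGGG, any 2 bases, TTCC), which resembles a kappa-B site and whose matches did not overlap those of the first, was found in 2 of the 129 (1.55%) and in 1.74% of all, and in no called lincRNA. The same 10 bases as in PSMB8-AS1 stand in the promoter of AP001258.4, now FAM111A-DT (chr11:59142876-59142905, minus strand), shown for comparison with capitals for the match.

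FAM111A-DT window: aagcgagagcGAAAGCGAAAgcatcctagt

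FAM111A-DT had a log2 fold change of -0.38 and an edgeR adjusted p of 0.24, so the same letters stood before one lincRNA that fell and one that was not called. A match is a stretch of letters and not a measured binding site.

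AC104654.2, now LINC01914 (chr2:41931599-41934660, minus strand, 6 exon blocks), fell with the next smallest p. It had 185, 197 and 231 counts under CELF6-OE against 467, 467 and 507 in Control. The coefficient of variation of CPM was 13.7% in CELF6-OE and 5.85% in Control, and the gap between the groups was wide. The FPKM was 8.83 ± 1.22 in CELF6-OE and 19.3 ± 0.8 in Control (SD, n = 3 each), and the log2 fold change was -1.16 ± 0.12 (SE) with an edgeR adjusted p of 7.7e-05. It was also one of the 21 lincRNAs with an FPKM of at least 10. The nearest protein-coding gene is PKDCC, a secreted tyrosine kinase gene 113361 bp away on the opposite strand, which had a log2 fold change of -1.05 and an edgeR adjusted p of 0.000144.

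RP11-273G15.2, now LY6E-DT, starts 465 bp from LY6E on the opposite strand. LY6E encodes a membrane-anchored protein of the Ly6 family that interferon induces. The lincRNA had 26, 38 and 30 counts under CELF6-OE against 72, 71 and 64 in Control. These counts are among the lowest of the members. The Control mean alone reached the minimum of 50, with 69.0 counts against 31.3 in CELF6-OE. The groups did not overlap and the log2 fold change of the lincRNA was -1.06 ± 0.20 (SE), edgeR adjusted p 0.00377. LY6E, with which it shares 88 exon bases on the opposite strand, had 10336, 9937 and 12937 counts under CELF6-OE against 30409, 33485 and 35070 in Control, and its log2 fold change was -1.50.

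CASC15 and LINC00488 fell as well. CASC15 is a long multi-exon transcript of 6p22, a region tied to neuroblastoma risk, and had 121, 109 and 113 counts under CELF6-OE against 215, 193 and 172 in Control, and its log2 fold change was -0.68 ± 0.13 (SE). LINC00488 had 32, 23 and 40 counts under CELF6-OE against 74, 72 and 76 in Control, and its log2 fold change was -1.15 ± 0.22 (SE). In neither did the groups overlap, and the edgeR adjusted p were 0.00549 and 0.00499. LINC00488 reached the minimum count through its Control mean alone.

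LINC01588, RP5-884M6.1 and LINC00887 had smaller differences. LINC01588 had 115, 146 and 160 counts under CELF6-OE against 221, 251 and 284 in Control, and its log2 fold change was -0.77. RP5-884M6.1, now LINC02577, had 103, 98 and 81 counts under CELF6-OE against 147, 159 and 177 in Control, and its log2 fold change was -0.70. Both had groups that did not overlap, with edgeR adjusted p of 0.00586 and 0.00738. LINC00887 had 74, 42 and 69 counts under CELF6-OE against 111, 108 and 121 in Control, with a log2 fold change of -0.80 and an edgeR adjusted p of 0.0235. Its call was lost without CELF6-OE replicate 2 (edgeR adjusted p 0.0692) and without Control replicate 2 (0.0637).

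RP1-27K12.2 stood out for the gene it overlaps. It shares 529 exon bases on the same strand with GCLC, which encodes the catalytic subunit of the first enzyme of glutathione synthesis. It had 63, 50 and 62 counts under CELF6-OE against 100, 117 and 88 in Control, and its log2 fold change was -0.72 with an edgeR adjusted p of 0.018. GCLC had a log2 fold change of 0.39 with an edgeR adjusted p of 0.00863, so the lincRNA and the overlapping gene went in opposite directions. The call of RP1-27K12.2 was lost without CELF6-OE replicate 2 (edgeR adjusted p 0.0813) and without Control replicate 2 (0.0985).

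The last 2 lincRNAs called lower fell outside the rule for named genes and are given because they complete the 12. LINC00473, a cAMP-responsive transcript described in lung cancers that lack LKB1, had 117, 105 and 84 counts under CELF6-OE against 188, 137 and 162 in Control, with a log2 fold change of -0.60 and an edgeR adjusted p of 0.03. RP11-46D6.1 had 26, 31 and 50 counts under CELF6-OE against 69, 60 and 83 in Control, with a log2 fold change of -0.91 and an edgeR adjusted p of 0.0323. In both the nearest libraries of the groups lay close together, and their calls held in 9 and 10 of the 14 other fits. RP11-46D6.1 reached the minimum count through its Control mean alone. Of the 12 lincRNAs called lower, 7 kept their call under every one of the 14 other fits.

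Several expressed lincRNAs are known as microRNA hosts, that is, transcripts from which a hairpin is excised and processed into a mature microRNA. By position, 16 of the 258 were found to hold at least 1 RefSeq hairpin on the same strand, 25 hairpins and 41 mature sequences in all. This count is incomplete, since MIR22HG shares 85 exon bases with MIR22 on the same strand and is not among the 16. Among the 16, RP11-631N16.2, now MIRLET7IHG, was called higher and MIR210HG lower, each 6.25% of the 16. Of all genes tested, 1.35% were called higher and 5.82% lower. Counts of 1 gene are read as no result about the hosts. The mature sequences that they hold are printed with the seed, bases 2 to 8, in capitals, beside the 2 let-7 members of MIRLET7BHG. The positions on GRCh38 are chr12:62603691-62603712 (plus strand) for let-7i, chr22:46112752-46112773 (plus) for let-7a, chr22:46113691-46113712 (plus) for let-7b and chr11:568112-568133 (minus) for miR-210.

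hsa-let-7i-5p: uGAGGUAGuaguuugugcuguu

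hsa-let-7a-5p: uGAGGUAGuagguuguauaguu

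hsa-let-7b-5p: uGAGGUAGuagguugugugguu

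hsa-miR-210-3p: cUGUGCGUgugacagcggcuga

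The 3 let-7 sequences share the seed GAGGUAG, known for repressing LIN28 and RAS family messages, and miR-210, the best known microRNA of the hypoxia response, has the seed UGUGCGU. RP11-631N16.2 had 75, 76 and 83 counts under CELF6-OE against 33, 38 and 43 in Control. No library of one group reached the other, and the log2 fold change was 1.11 ± 0.18 (SE), edgeR adjusted p 0.002. RP11-631N16.2 reached the minimum count through its CELF6-OE mean alone. RP11-631N16.4, another lincRNA row that holds the let-7i hairpin, had 91, 114 and 96 counts under CELF6-OE against 65, 67 and 102 in Control, with an edgeR adjusted p of 0.153. MIRLET7BHG had 111, 133 and 109 counts under CELF6-OE against 108, 101 and 117 in Control, with an edgeR adjusted p of 0.39. Of the 2 rows with the let-7i hairpin 1 was thus called, and the host of let-7a and let-7b had overlapping groups.

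MIR210HG had 69, 83 and 92 counts under CELF6-OE against 110, 163 and 167 in Control. The groups did not overlap, the log2 fold change was -0.78 ± 0.19 (SE) and the edgeR adjusted p was 0.0182. The call was lost without CELF6-OE replicate 1 (edgeR adjusted p 0.0832), without CELF6-OE replicate 2 (0.0712) and without Control replicate 2 (0.0863). The mature microRNAs were not measured, since the libraries hold polyadenylated RNA.

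Of the 8 lincRNAs on the list of microRNA hosts written from their symbols, MIR210HG was called, 1 was higher under 1.5-fold and 6 did not pass the test. MIR22HG, the host of miR-22, had 410, 457 and 386 counts under CELF6-OE against 321, 329 and 358 in Control, and its log2 fold change was 0.39 with an edgeR adjusted p of 0.0214. It did not pass without CELF6-OE replicate 1 (edgeR adjusted p 0.0716), without CELF6-OE replicate 2 (0.105) or without Control replicate 2 (0.109). MIR4435-2HG, which is among the 10 with a mean over 1000 counts, had a log2 fold change of 0.21 and an edgeR adjusted p of 0.0694, which was 0.0116 without Control replicate 3. MIR222HG and MIR503HG had log2 fold changes of 0.35 and 0.30, and PVT1, MEG3 and MIR4458HG lay between -0.06 and -0.04, all 5 with edgeR adjusted p of 0.137 or more. That of MIR222HG was 0.0185 without Control replicate 1. The list's median log2 fold change was 0.08, beside 0.01 for all genes tested.

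The 3 expressed lincRNAs on a list of abundant or architectural ones, which does not hold BCYRN1, did not pass the test. NEAT1, the scaffold of paraspeckles, had 3369, 3940 and 3912 counts under CELF6-OE against 4475, 4079 and 3931 in Control. LINC00657, now NORAD, had 3239, 3475 and 3068 counts under CELF6-OE against 3570, 3174 and 2691 in Control. MALAT1 had 796, 825 and 967 counts under CELF6-OE against 778, 710 and 915 in Control. In all 3 the groups overlapped on the CPM scale, where NEAT1 had 96.8, 109 and 114 under CELF6-OE against 121, 110 and 108 in Control. Their log2 fold changes were -0.08 ± 0.08, 0.13 ± 0.09 and 0.18 ± 0.12 (SE), with edgeR adjusted p of 0.501, 0.355 and 0.309. Without Control replicate 1 the edgeR adjusted p of NORAD was 0.0387.

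Of the 6 lincRNAs with the highest FPKM, BCYRN1 alone was called. RMRP, the RNA of the ribonuclease MRP complex that acts in ribosomal RNA processing, led on this scale with an FPKM of 42.4 ± 26.4 in CELF6-OE and 66.1 ± 15.7 in Control (SD, n = 3 each). Its counts were 697, 201 and 333 under CELF6-OE against 539, 653 and 883 in Control. CELF6-OE replicate 1 lay above 2 of the 3 Control libraries while the other two lay below them all, and the log2 fold change of -0.67 ± 0.35 (SE) had an edgeR adjusted p of 0.202. Without CELF6-OE replicate 1 it was -1.29 with an edgeR adjusted p of 0.0117. RMRP is known as a polymerase III transcript without a poly(A) tail, and the libraries were made from polyadenylated RNA.

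The other 4 of the 6 were steadier. RP11-14N7.2, now LINC02802, had an FPKM of 34.8 ± 1.4 in CELF6-OE and 30.4 ± 2.0 in Control, and RP11-38M8.1, now LINC03060, had 18.9 ± 0.8 and 21.9 ± 1.5 (SD, n = 3 each). LINC00998 had an FPKM of 20.0 ± 1.1 in CELF6-OE and 18.1 ± 4.1 in Control. It is typed as protein-coding under the name SMIM30, a small membrane protein, in GENCODE v44. LINC00973 had an FPKM of 16.3 ± 0.9 in CELF6-OE and 16.7 ± 1.5 in Control (SD, n = 3). The edgeR adjusted p of these 4 were 0.0892 or more, but without Control replicate 1 that of RP11-38M8.1 was 0.00939 and that of LINC00998 was 0.0246.

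Of 3 expressed lincRNAs on a list described in interferon, NF-kB or macrophage responses, none was called and MIR22HG alone was higher under 1.5-fold. LUCAT1, which limits interferon-induced transcription in myeloid cells, had 417, 417 and 384 counts under CELF6-OE against 459, 462 and 446 in Control, with an edgeR adjusted p of 0.49. The median log2 fold change of the 3 was -0.08, beside 0.01 for all genes tested. PSMB8-AS1 and LY6E-DT were not on the list.

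Of 3 lincRNAs on a p53-linked list, LINC01021 was lower under 1.5-fold. LINC01021, now PURPL, is induced by p53 and limits p53 levels. It had 108, 98 and 101 counts under CELF6-OE against 164, 146 and 157 in Control, so the groups did not overlap, with a log2 fold change of -0.53 ± 0.13 (SE) and an edgeR adjusted p of 0.0189. It did not pass without CELF6-OE replicate 2 (edgeR adjusted p 0.0819) or without Control replicate 2 (0.0515). TP53TG1 had 316, 276 and 298 counts under CELF6-OE against 352, 367 and 363 in Control, with an edgeR adjusted p of 0.189. NEAT1 is the third, and the list's median log2 fold change was -0.21.

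Of 13 expressed lincRNAs on a list studied in carcinomas, CRNDE was called higher, CASC15 was called lower and 11 did not pass the test. Each call is 7.69% of the list, beside 1.35% of all genes tested called higher and 5.82% called lower. CCAT1, a colon cancer transcript from the MYC region, came nearest. It had 90, 129 and 77 counts under CELF6-OE against 153, 156 and 141 in Control, with a log2 fold change of -0.53 ± 0.17 (SE) and an edgeR adjusted p of 0.0524. This lay near the threshold, since of 14 other fits 7 gave an adjusted p under 0.05, from 0.0104 with no filter to 0.0473 without Control replicate 1, and the other 7 gave 0.0513 to 0.168. LINC00152, now CYTOR, PVT1 and LINC00511 had log2 fold changes of 0.13, -0.06 and 0.08. LINC00941, LINC01116 and CASC9 had log2 fold changes of -0.21, 0.06 and -0.10, and CASC9 was among the 11 most variable members with 216, 155 and 109 counts in Control against 133, 143 and 148 in CELF6-OE. The list's median log2 fold change was -0.06, and JPX, an activator of X inactivation and the single member of that list, had 391, 380 and 410 counts under CELF6-OE against 445, 425 and 369 in Control, with an edgeR adjusted p of 0.973.

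A further 12 lincRNAs were higher and 11 lower at an adjusted p under 0.05 but under 1.5-fold. Among the 11, the smallest p, chosen after the values were seen, belonged to CMB9-22P13.1, with 412, 369 and 404 counts under CELF6-OE against 639, 652 and 559 in Control. Its log2 fold change was -0.57 with an edgeR adjusted p of 0.00272. It is typed as a pseudogene named FAUP4 in GENCODE v44, and as a copy of the gene FAU it may share reads with it. Its implied length was 1552 bp, 7.46 times the 208 annotated exon bases, so the row would span a longer model. All 208 are shared with ENSG00000291174 on the same strand. Its count is therefore uncertain.

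GENCODE v44, which uses the same build, held 242 of the 258 lincRNAs. It types 227 of them as long non-coding RNA, 10 as transcribed pseudogenes (7 unprocessed and 3 processed), 4 as protein-coding and BCYRN1 as a small cytoplasmic RNA. The structure of the called lincRNAs differed in a way that the rule did not use, though it was noticed after the calls were known. Of the 25 called higher with an entry, 18 (72.0%) consisted of 1 exon block, against 2 of the 11 called lower (18.2%), 62 of the 206 not called (30.1%) and 82 of all 242 (33.9%). The median exon length was 2517 bases in those called higher, 3994 in those called lower and 3132 in those not called. The blocks are those of GENCODE v44 and may differ from the models behind the counts. Those called higher with 1 block include BCYRN1 and FAM95C. Their implied lengths were 69.6 and 10.7 times the annotated ones. These shares are a description without a test.

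Sharing of exon bases with another gene was common. Of the 242, 132 shared exon bases with another annotated gene, 56 of them on the same strand and 76 only on the opposite strand. Among those called higher 13 of 25 did so, 3 of them on the same strand, and among those called lower 7 of 11, 2 of them on the same strand. Restricted to the 110 lincRNAs without any shared exon base, 12 were called higher and 4 lower.

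Position next to a protein-coding gene was examined because divergent transcripts start beside such a gene. Only strand and distance were used, not whether the genes point apart, so overlapping pairs such as RP11-273G15.2 and LY6E were kept. A start within 1 kb of a protein-coding start on the opposite strand was found for 59 of the 242 lincRNAs (24.4%), for 4 of the 25 called higher (16.0%) and for 2 of the 11 called lower (18.2%). For 194 lincRNAs the nearest protein-coding gene had been tested too. Of these genes 11 were called lower (5.67%, beside 5.82% of all genes tested) and 0 higher (beside 1.35%), so the share called lower was near that of all genes. The lincRNA next to a gene called lower was itself called lower in 3 cases, PSMB8-AS1, AC104654.2 and RP11-273G15.2, and lay below 0 in 7. Among the others, AC093323.3 next to S100P had a log2 fold change of 0.24 while S100P, a calcium-binding protein gene, had -1.27, and U91328.19 next to TRIM38 had 0.26 while TRIM38, a ubiquitin ligase gene, had -0.98.

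Of the 7 tested neighbours of lincRNAs called lower 3 were called lower. Of the 18 tested neighbours of lincRNAs called higher 0 were called at 1.5-fold, beside 7.17% of all genes tested called in either direction. Under 1.5-fold, XRCC5, ALYREF, ENSG00000266086, AMZ2 and SBNO1 among the latter were higher, with edgeR adjusted p of 0.00176 to 0.0464. Their log2 fold changes were 0.21 to 0.50. Of all genes tested, 6.47% were higher at any fold. GCLC and SHCBP1, beside lincRNAs called lower, were also higher under 1.5-fold. With so few neighbours these counts are a description, and their difference was not tested. Over the 194 pairs Pearson's r between the log2 fold changes was 0.28 and Spearman's rho 0.14. Pearson's r was 0.10 over the 191 pairs without the 3 lincRNAs called lower beside genes called lower. Over the 56 tested pairs that start within 1 kb on opposite strands Pearson's r was 0.68 and Spearman's rho 0.41. These include PSMB8-AS1 with -1.68 beside -1.44 for PSMB8, and RP11-273G15.2 with -1.06 beside -1.50 for LY6E. How far Pearson's r of 0.68 rests on these pairs was not tested, and RP11-273G15.2 reached the minimum count through its Control mean alone. In those 56 pairs 3 genes were called lower, and their lincRNAs PSMB8-AS1, RP11-273G15.2 and RP11-259N19.1 all lay below 0, the last, now HK2-DT beside the hexokinase gene HK2, with -0.36 and an edgeR adjusted p of 0.114. The pairs come from the same 6 libraries, some share reads or a neighbour, and the correlations across genes are given as a description with no p.

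**Figure D4:**
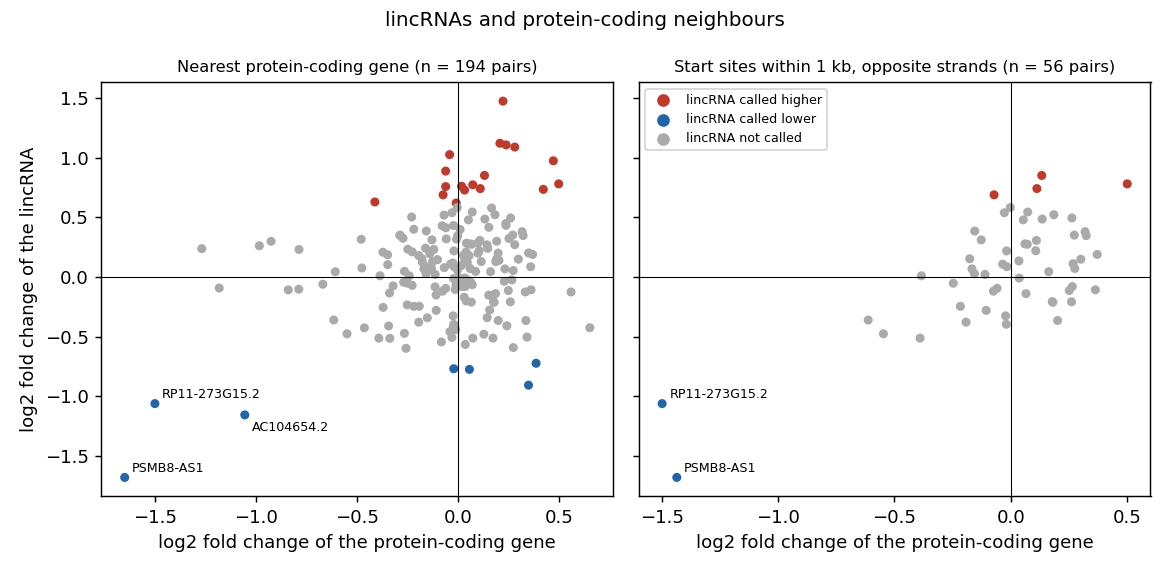
Log2 fold change (CELF6-OE over Control) of a lincRNA against that of its nearest protein-coding gene (left, 194 pairs) and of the protein-coding gene that starts within 1 kb on the opposite strand (right, 56 pairs), with lincRNAs called higher in red, called lower in blue and not called in grey. The labelled lincRNAs called lower (3 on the left, 2 on the right) lie beside genes that were also called lower. The red points lie between -0.41 and 0.50 on the horizontal axis, where no gene reached 1.5-fold.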

How the data were processed

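Polyadenylated RNA of A549 cells was sequenced 48 h after transfection with a plasmid that carried CELF6 or was empty, in 3 biological replicates each. The authors removed adaptors and poor reads (FASTX-Toolkit), used TopHat2 for alignment on GRCh38, and derived counts and FPKM from reads that aligned at a single place. Which counter, strand option and annotation release they used is not given in the sources used here. The deposited counts are whole numbers per gene without normalization, and the deposited FPKM values scale fragments by transcript length and library. The number of unused columns was 0.

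Members were lincRNA rows with a mean of at least 50 counts. Members, lists and thresholds were chosen with earlier results of these data known. From the counts, genes kept by filterByExpr (minimum count 10) were scaled by TMM and tested in edgeR 4.0.16 (R 4.3.3) with the quasi-likelihood test, a prior count of 0.125 and Benjamini-Hochberg adjustment over 15847 genes. The prior degrees of freedom were 7.15 and the biological coefficient of variation was 8.62%. A call needed 1.5-fold or more with an adjusted p under 0.05. Named were the 10 lincRNAs with the smallest p in each direction, the 6 with the highest FPKM, members of 6 lists from general knowledge, and the 3 on either side of the minimum count. FPKM served for levels, as mean ± SD. The SE beside a log2 fold change was back-calculated from the F statistic of the quasi-likelihood test. It is the size of the test's own log2 fold change over the square root of F, and the printed fold change was computed separately with the prior count. Depth was 33748328 to 37920700 counts per library, and an upper limit of 3 counts stands for 0 and covers counting error only.

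Positions and exon overlap came from GENCODE v44, promoters and microRNAs from RefSeq on GRCh38.p14. Alternatives were RLE, upper quartile and library size scaling, other filters, DESeq2 1.42.0, limma-voom (limma 3.58.1), a replicate block, leaving out each library, other thresholds and subsets of members. The procedure was tested on simulated counts. Some items are not reported here.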

Additional observations from a re-analysis of the deposited data

How the results depend on the processing

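Over other scalings, filters and tests, the 26 lincRNAs called higher became 25 to 28 and the 12 called lower became 11 to 15. Leaving out each library gave 16 to 29 called higher, 8 to 15 called lower, 19 to 45 higher at any fold, 9 to 30 lower at any fold, and a median log2 fold change of 0.0476 to 0.1056. A mean count of at least 100 left 142 lincRNAs, of which 13 were called higher, 7 lower and 23 higher at any fold. A mean of at least 25 gave 426, of which 30 were called higher and 24 lower, and 42 higher and 35 lower at any fold, with a median of 0.034, so both directions lay closer together than for the 258. Without shared exon bases 110 remained, of which 12 were called higher, 4 lower, 18 higher at any fold and 10 lower at any fold. These subsets hold other numbers of lincRNAs. A fold change of 2 left 7 higher and 4 lower, and an unadjusted p under 0.01 gave 26 and 12. With library size as the only scaling the median was 0.12. Same-numbered libraries did not deviate together (r of 0.003, -0.007 and -0.064), so the libraries were treated as unpaired. A fit with the replicate number as a block gave 26 called higher, 12 lower, 32 and 21 at any fold, and a median of 0.0857. LincRNAs with small uncalled differences changed sign when 1 library was left out, with ranges of -0.3094 to 0.1626 for CASC9, -0.0606 to 0.0519 for JPX, -0.0369 to 0.1495 for LINC01116, -0.2404 to 0.0784 for MEG3, -0.1547 to 0.0406 for MIR4458HG and -0.112 to 0.0024 for PVT1, and JPX was also at -0.0007 with no filter and at -0.0041 with a filter at a mean of 50. RMRP passed the test with no filter on low counts (log2 fold change -0.68, edgeR adjusted p 1.35e-08), where the prior degrees of freedom were infinite. The cause of these moves was not tested.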
